A study of Mus musculus with 9 samples.

Results

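The let-7 family was examined in the small RNA libraries as 10 mature miRNAs, taken by name from the 817 miRNAs of the count table. In the names of the table these were mmu-let-7a-5p, mmu-let-7b-5p, mmu-let-7c-5p, mmu-let-7d-5p, mmu-let-7e-5p, mmu-let-7f-5p, mmu-let-7g-5p and mmu-let-7i-5p, from the 5p arm of their precursors, and mmu-let-7d-3p and mmu-let-7i-3p from the 3p arm; the prefix for mouse is left out from here on. The table held 9 other rows named let-7 or miR-98, of which miR-98-5p (2400 reads over all libraries) and let-7j (91 reads) were the only ones above 7 reads. The libraries came from preleukemic cells, which were c-Kit-enriched fetal liver cells of mid-gestation mouse embryos transduced with Meis1 and Hoxa9, oncogenes that all samples of both groups carried. In the 4 Tut4/7 cKO libraries, floxed Tut4 and Tut7 alleles were deleted with Vav-iCre, a Cre recombinase driven by a promoter active in the blood lineage. The 5 Tut4/7 CTL libraries came from floxed littermates without iCre and are called WT in the labels. All cultures received Stem Cell Factor, IL-6, IL-3 and serum.

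let-7 miRNAs are short RNAs that bind mRNAs through their seed and repress growth and cell cycle genes, and the mature family rises as cells differentiate. TUT4 and TUT7 are terminal uridylyltransferases that add uridines to RNA 3′ ends. On precursors of let-7 they add a long tail together with LIN28, which blocks maturation, or, without LIN28, a single uridine that aids cleavage by Dicer; that uridine sits at the 3′ end of the future 3p arm. Uridines, read as Ts in sequencing, are also added to mature miRNAs.

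All 10 members matched an entry of the RefSeq miRNA table (GRCm38.p6), and their mature sequences are printed with the seed, bases 2 to 8, in capitals, because the shared seed is what makes the 5p arms a family and the few differing bases decide which reads can be told apart.
let-7a-5p: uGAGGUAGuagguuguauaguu
let-7b-5p: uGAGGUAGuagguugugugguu
let-7c-5p: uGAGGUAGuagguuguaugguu
let-7d-5p: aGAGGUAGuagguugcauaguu
let-7e-5p: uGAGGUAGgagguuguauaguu
let-7f-5p: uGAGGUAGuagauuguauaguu
let-7g-5p: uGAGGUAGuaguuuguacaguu
let-7i-5p: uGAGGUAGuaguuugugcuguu
let-7d-3p: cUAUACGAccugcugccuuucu
let-7i-3p: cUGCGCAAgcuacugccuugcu

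The 8 5p members shared the seed GAGGUAG, while let-7d-3p and let-7i-3p had seeds of their own. All were 22 bases long, so read counts need no correction for length between members. Other effects of the sequence on how often a member is read were not tested. let-7c-5p, let-7e-5p and let-7f-5p differed from let-7a-5p at 1 base, let-7b-5p, let-7d-5p and let-7g-5p at 2 bases and let-7i-5p at 4.

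Added Ts can only be read with certainty where the genome does not continue in Ts, so each mature sequence was located in GRCm39, and the 6 genomic bases that follow are given in capitals for a locus without a following T, 1 with a single T and 1 with a pair of Ts. let-7i-5p lay within Mirlet7i at chr10:122821603-122821624 on the minus strand, let-7d-3p within Mirlet7d at chr13:48689500-48689521 on the minus strand and let-7a-5p within Mirlet7a-1 at chr13:48691715-48691736 on the minus strand.
let-7i-5p: tgaggtagtagtttgtgctgttGGTCGG
let-7d-3p: ctatacgacctgctgcctttctTAGGGC
let-7a-5p: tgaggtagtaggttgtatagttTTAGGG

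No T followed let-7e-5p, let-7i-5p or let-7i-3p. A run of 1 T followed let-7b-5p, let-7g-5p and let-7d-3p, and a run of 2 followed let-7d-5p and at least 1 locus of let-7a-5p, let-7c-5p and let-7f-5p. In these 7 members a first T past the mature end can be either a genomic base left by Drosha or Dicer cleavage or an added one.

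The libraries held 209702 to 316620 miRNA reads in Tut4/7 CTL and 175462 to 479342 in Tut4/7 cKO. No small RNA reports on Tut4 or Tut7 mRNA, and so the genotypes could not be checked directly. One library, labelled Tut4/7 CTL replicate 2, stood apart. Its median share of reads with added Ts over miRNAs was 0.644%, with 3.50 to 4.58% measured for the remaining 4 of its group and 0.0738 to 0.209% for Tut4/7 cKO. It is kept in all values unless stated, and some of the results that rest on it are also given without it. The blood markers miR-223-3p, miR-142a-3p, miR-142a-5p and miR-155-5p were all present and summed to 4722 to 14101 CPM (counts scaled to a fixed library size, here by the library total). Of 9 markers of hepatocytes, muscle, neurons, epithelium and endothelium, 7 were in the table and summed to 1977 to 3057 CPM in Tut4/7 CTL against 969 to 2902 CPM in Tut4/7 cKO libraries. Most of this came from the hepatocyte miRNA miR-122-5p and from the epithelial miR-200a-3p, miR-200b-3p and miR-200c-3p, and their part in the results was not tested. The lymphoid marker miR-150-5p was at 4.77 to 62.3 CPM in controls and 39.0 to 265 CPM in Tut4/7 cKO libraries, and its part was not tested either.

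The first question was how much of each let-7 member the cells held in either genotype. No member passed the test for a change in abundance, and the reads of the family were dominated by let-7i-5p and let-7a-5p. Of miRNA reads the 10 members made up 29.7% ± 3.38 (SD, n = 5) for Tut4/7 CTL, compared to 28.2% ± 5.70 (SD, n = 4) for Tut4/7 cKO. In Tut4/7 CTL libraries let-7i-5p stood at 131166 CPM ± 11237, let-7a-5p at 77122 ± 24074, let-7g-5p at 31929 ± 5927, let-7d-5p at 18813 ± 1316 and let-7f-5p at 16539 ± 3841 (SD, n = 5). let-7i-5p, let-7a-5p and let-7g-5p did not overlap with the next member in this order, whereas let-7d-5p and let-7f-5p did. Below them came let-7d-3p at 5322 CPM ± 4595 and let-7c-5p at 2196 ± 2482. let-7b-5p (73.3 CPM ± 38.9), let-7i-3p (31.2 ± 20.6) and let-7e-5p (22.02 ± 12.4) were counted by 40 reads or fewer in a library. These CPM values were scaled by TMM.

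**Figure D1:**
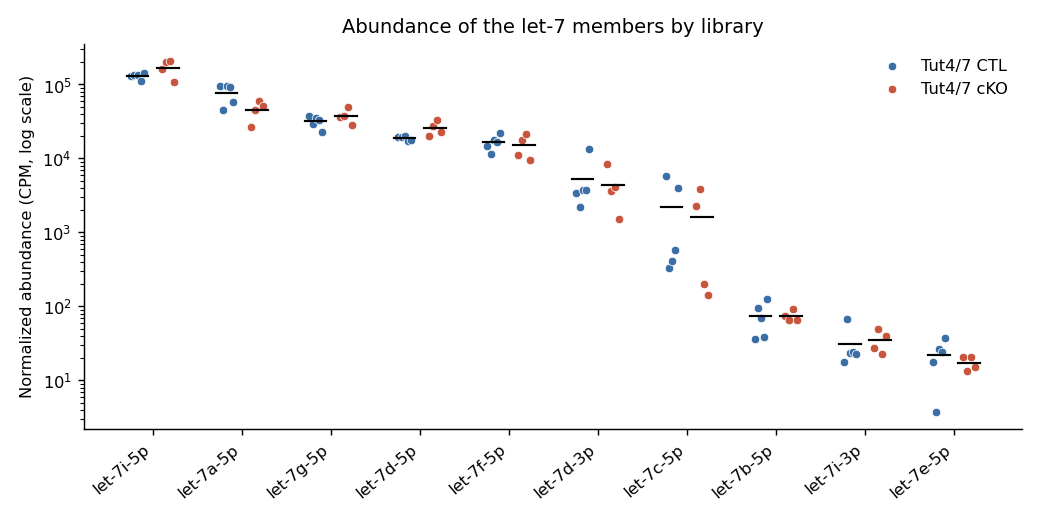
Normalized abundance of the 10 let-7 members (CPM, log axis), with a point for each library (Tut4/7 CTL in blue, n = 5; Tut4/7 cKO in red, n = 4) and a line at each group mean. The order of the members is alike in both genotypes, and let-7c-5p spreads from 143 to 5708 CPM within the groups.

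Of the 10 members, 9 had enough reads to be tested (10 or more reads in 4 or more libraries), and 0 passed an adjusted p of 0.05 in edgeR's quasi-likelihood test. Over the 205 miRNAs tested, 0.488% were called lower and 0 were called higher. At an unadjusted p under 0.05 there were 2 members and 31 miRNAs in all, and DESeq2 also called 0 of the 9 members. Because these are bulk samples, fewer cells of a type and less RNA per cell cannot be told apart.

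let-7a-5p had the lowest fold change of the members. Its level was 96810, 45083, 95140, 91075 and 57504 CPM in Tut4/7 CTL replicates 1 to 5 and 26659, 45107, 59788 and 50771 CPM in Tut4/7 cKO replicates 1 to 4. The 3 highest Tut4/7 CTL libraries lay above all Tut4/7 cKO libraries, but replicates 2 and 5 lay within their range. The log2 fold change was −0.76 (SE 0.29), with an adjusted p of 0.284 in edgeR's test.

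let-7d-5p and let-7i-5p, in contrast, had positive fold changes that did not pass either. let-7d-5p lay between 17253 and 20313 CPM in Tut4/7 CTL and at 20131, 27096, 32670 and 22783 CPM in Tut4/7 cKO libraries (log2 fold change 0.45, SE 0.19, adjusted p 0.300, edgeR). Only Tut4/7 cKO replicate 1 fell inside the control range. let-7i-5p lay between 112878 and 143658 CPM in Tut4/7 CTL libraries, against 161748, 202019, 204380 and 108445 CPM in Tut4/7 cKO libraries (log2 fold change 0.37, SE 0.18, adjusted p 0.353, edgeR). Here 3 Tut4/7 cKO libraries lay above every control and replicate 4 below them all. The log2 fold changes of let-7g-5p, let-7f-5p, let-7c-5p, let-7b-5p and the 3p arms ranged from −0.44 for let-7c-5p to 0.25 for let-7g-5p. The median over the members tested was 0.02, and over all miRNAs −0.01.

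The balance of the arms was asked next, since both arms were listed for let-7d and let-7i. The 3p arm took 15.0, 10.3, 15.4, 17.98 and 43.3% of let-7d reads in Tut4/7 CTL replicates 1 to 5 and 29.5, 11.97, 11.1 and 6.19% in Tut4/7 cKO replicates 1 to 4. The groups overlapped, and the log2 ratio of the arms differed by −0.63 (exact two-sided permutation test, p = 0.429). let-7i was almost entirely 5p, with 0.0135 to 0.0504% of its reads from the 3p arm in Tut4/7 CTL and 0.0112 to 0.0371% in Tut4/7 cKO libraries (difference in log2 ratio −0.09, exact two-sided permutation test, p = 0.873). These were 2 tests, without adjustment, and 5 against 4 libraries allow no p below 0.0159.

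A further point about abundance is which member a read is counted for. Each distinct read was listed under 1 name in each library. Of the 3852 distinct reads counted, which are not only let-7 reads, 34 were listed under different names in different libraries. Among let-7 reads that fit more than 1 name, the most frequent was an 18-base read that ends before let-7a-5p and let-7c-5p part. It is shown for that reason.
let-7a-5p or let-7c-5p: tgaggtagtaggttgtat

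This read was listed under let-7c-5p in Tut4/7 CTL replicates 1 and 5 (1208 and 986 reads) and in Tut4/7 cKO replicates 1 and 2 (302 and 1344 reads). In the other 5 libraries it was listed under let-7a-5p, with 734, 1600 and 1266 reads in Tut4/7 CTL replicates 2, 3 and 4 and 1676 and 963 reads in Tut4/7 cKO replicates 3 and 4. The count of let-7c-5p followed it. let-7c-5p had 1278, 87, 141, 168 and 1049 reads in Tut4/7 CTL against 337, 1411, 88 and 57 in Tut4/7 cKO libraries, and of these only 70, 47, 97, 86 and 61 and 26, 59, 80 and 57 reads fitted no other member. Thus the apparent spread of let-7c-5p, from 57 to 1411 reads, shrank to 26 to 97 reads.

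**Figure D2:**
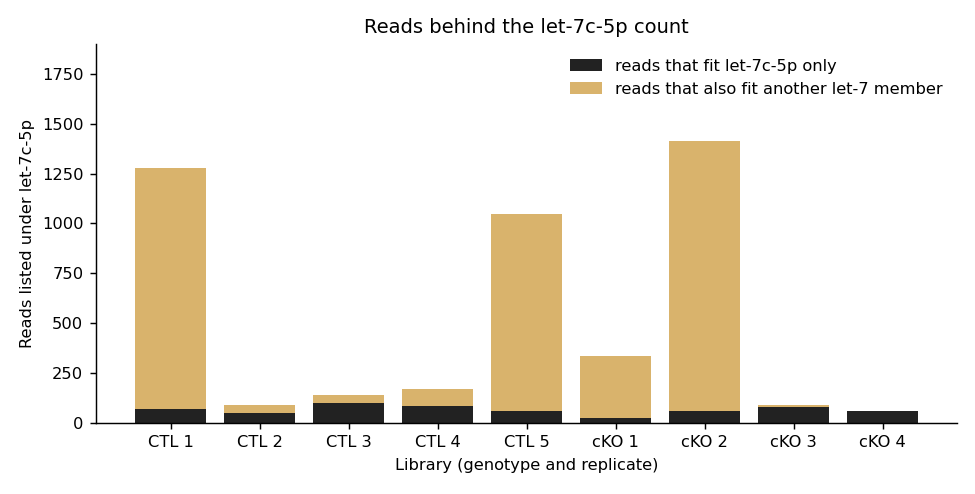
Reads listed under let-7c-5p in each library (vertical axis, reads), split into reads that fit let-7c-5p only (black) and reads that also fit another member (tan). The 4 libraries above 300 reads owe their height to reads shared with let-7a-5p, while 26 to 97 reads per library fit let-7c-5p alone.

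Over all libraries 87.4% of let-7c-5p reads, 32.5% of let-7b-5p reads and 3.83% of let-7a-5p reads also fitted another member. For let-7g-5p this was 0.0156%, for let-7i-5p 0.000729% and for the other 5 members 0. No shared read was longer than 18 bases and none carried an added T. With only reads that fit a single miRNA, let-7c-5p had a log2 fold change of −0.76 (adjusted p 0.197) and let-7a-5p of −0.89 (adjusted p 0.183), and 0 members were called in edgeR's test. At an unadjusted p, let-7c-5p then moved from 0.701 to 0.0178 in edgeR's test.

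Uridylation of the mature members was compared next, as the share of reads of a member that end in 1 to 3 Ts past its mature end. It fell in 6 members and rose in 0. Those that fell were both arms of let-7d and the 5p arms of let-7i, let-7g, let-7f and let-7a. For let-7d-3p the call ended among reads that reach the mature end (log2 odds ratio 0.37, adjusted p 0.986, edgeR). The test, edgeR's quasi-likelihood test of reads with against reads without added Ts with a term for each library, was open to 8 members with enough reads, and its log2 fold change is a log2 odds ratio. Over the 157 miRNAs tested, 54.1% were called lower and 0 were called higher, and whether the members differ from miRNAs in general was not tested. The median log2 odds ratio was −2.86 over the 8 members and −2.74 over all 157.

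let-7d-5p had the highest share among the well-covered members in controls. Its share with added Ts was 10.8, 1.41, 6.07, 8.29 and 6.81% in Tut4/7 CTL replicates 1 to 5 and 0.746, 0.271, 0.321 and 0.453% in Tut4/7 cKO replicates 1 to 4. The groups did not overlap, although Tut4/7 CTL replicate 2 came nearest to the Tut4/7 cKO libraries. The log2 odds ratio was −3.90 (SE 0.62, adjusted p 5.82e-05, edgeR). With reads summed over libraries, the share was 17.3 times higher in Tut4/7 CTL (95% exact interval 14.5 to 20.8), and 20.7 times without replicate 2. Exact intervals of summed shares cover counting error only, not the spread between libraries.

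let-7f-5p followed with 8.39, 1.80, 4.98, 7.37 and 6.31% in Tut4/7 CTL against 1.24, 0.438, 0.255 and 0.882% in Tut4/7 cKO libraries. Its groups did not overlap, and the log2 odds ratio was −3.22 (SE 0.61, adjusted p 0.000259, edgeR). let-7a-5p fell from 7.20, 1.80, 4.02, 5.30 and 4.71% to 1.54, 0.578, 0.431 and 0.946%. The lowest control, replicate 2, lay just above the highest Tut4/7 cKO library, replicate 1, and the log2 odds ratio was −2.51 (SE 0.55, adjusted p 0.000978, edgeR).

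let-7g-5p and let-7i-5p had lower mean shares in controls. let-7g-5p had 3.71, 0.893, 2.31, 3.52 and 3.35% in Tut4/7 CTL and 0.723, 0.562, 0.432 and 0.617% in Tut4/7 cKO libraries (log2 odds ratio −2.16, SE 0.52, adjusted p 0.00200, edgeR). Without overlap, this was the smallest change of the 6 that fell, with a summed share 5.10 times higher in Tut4/7 CTL (95% exact interval 4.48 to 5.83). let-7i-5p, the most abundant member and 1 of those with no genomic T after it, had 2.20, 0.266, 1.41, 2.01 and 1.43% in Tut4/7 CTL and 0.152, 0.0699, 0.0771 and 0.128% in Tut4/7 cKO libraries. The groups did not overlap, and the log2 odds ratio was −3.65 (SE 0.62, adjusted p 9.16e-05, edgeR), a summed share 15.5 times higher in Tut4/7 CTL (95% exact interval 13.5 to 17.96).

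**Figure D3:**
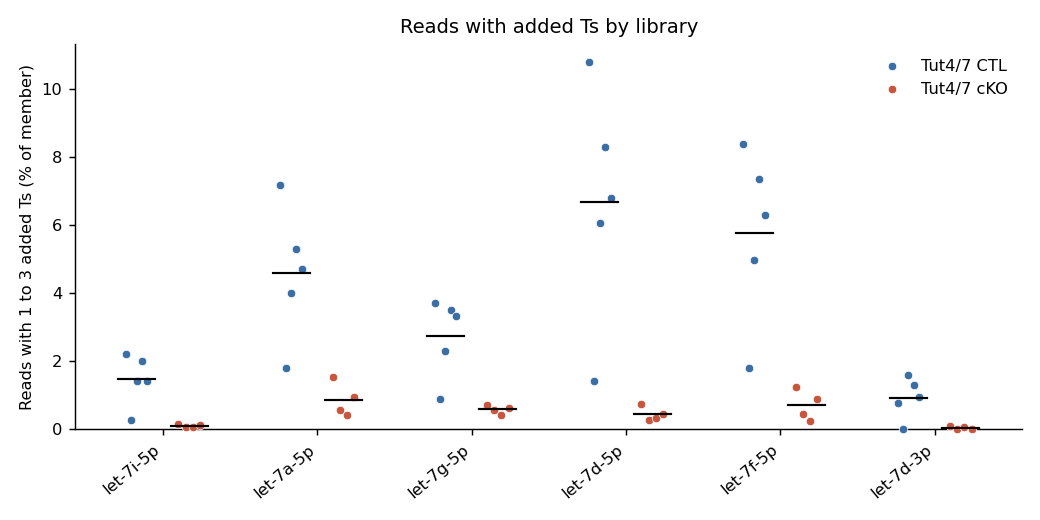
Share of reads with 1 to 3 added Ts (vertical axis, percent of the reads of each member) for the 6 members that fell, with a point for each library (Tut4/7 CTL in blue, Tut4/7 cKO in red) and a line at each group mean. The lowest blue point of each member is the library labelled Tut4/7 CTL replicate 2, and for the 5p members it still lies above every red point.

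let-7d-3p, the partner of let-7d-5p, had shares of 0.783, 0, 1.58, 1.29 and 0.949% in Tut4/7 CTL and 0.0811, 0, 0.0557 and 0% in Tut4/7 cKO libraries. Because Tut4/7 CTL replicate 2 had no such read among 592, the groups overlapped. The log2 odds ratio was −4.15 (SE 0.92, adjusted p 0.00112, edgeR), on 74 reads with added Ts in Tut4/7 CTL against 2 in Tut4/7 cKO libraries. let-7d-3p thus needed control reads to pass the read filter, which favored this direction. In all, every Tut4/7 cKO library lay below every Tut4/7 CTL library for 5 of the 8 members, and for 31.4% of the 156 miRNAs compared. Without Tut4/7 CTL replicate 2, the log2 odds ratios of the 6 ranged from −4.50 for let-7d-3p to −2.52 for let-7g-5p.

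The shares of let-7b-5p and let-7c-5p did not pass. let-7b-5p held 8 to 40 reads in a library, with 6 reads with added Ts in Tut4/7 CTL against 5 in Tut4/7 cKO libraries in all (log2 odds ratio −0.22, SE 1.06, adjusted p 0.897, edgeR). let-7c-5p had 13 and 3 such reads (log2 odds ratio −1.54, SE 1.10, adjusted p 0.248, edgeR), and its share depends on where the 18-base read was listed. let-7e-5p had no read with added Ts among 31 reads of controls or among 23 of Tut4/7 cKO libraries, which for the latter allows a share of up to 13.0%. let-7i-3p had 1 among 43 and 0 among 48, which allows up to 6.25%. At these depths a change in let-7e-5p, let-7i-3p or let-7b-5p was not detectable. Outside the list, miR-98-5p, which has the same seed, had a log2 odds ratio of −3.08 (SE 1.00, adjusted p 0.0157, edgeR), on 24 reads with added Ts in controls and 1 in Tut4/7 cKO replicate 1. That replicate, at 2.17%, lay above 4 of the 5 controls. miR-98-5p also needed control reads to pass the read filter. The miR-98-5p call was lost in the quasi-binomial model (adjusted p 0.1003) and in edgeR's test without Tut4/7 cKO replicate 2 (0.0750) or replicate 3 (0.0890).

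Shares of a single library are limited by its reads. The widest 95% Wilson interval of any library was 0.335 percentage points for let-7i-5p, 1.84 for let-7d-5p and 42.6 for let-7b-5p.

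The number of added Ts was then separated. Over the family, 97.3% ± 0.362 of tailed reads carried a single T in the Tut4/7 CTL libraries without replicate 2 (SD, n = 4), 90.2% in replicate 2 and 93.0% ± 4.17 (SD, n = 4) in Tut4/7 cKO libraries. Reads with 1 added T were 2.96% ± 1.46 of all let-7 reads in Tut4/7 CTL (SD, n = 5) and 0.312% ± 0.123 in Tut4/7 cKO (SD, n = 4). Reads with 2 added Ts were 0.0807% ± 0.0290 and 0.0231% ± 0.0226, and reads with 3 were 0.0148% ± 0.00911 and 0.00128% ± 0.00256. The family values are a description, since the members were listed together with knowledge of these data.

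For reads with exactly 1 T, the same 6 of 8 members fell (edgeR's quasi-likelihood test), against 51.6% of 155 miRNAs. The log2 odds ratios of the 6 ranged from −3.90 for let-7d-5p to −2.14 for let-7g-5p. Those of let-7b-5p and let-7c-5p were −0.22 and −1.38 without passing. For let-7d-3p, controls held 63 reads with 1 T and 5132 at the mature end, while Tut4/7 cKO libraries held 2 and 137. A single T was not tested among reads that reach the mature end, where the let-7d-3p call for all added Ts was lost. For reads with 2 or 3 Ts, 4 of 6 members tested fell, against 62% of 79 miRNAs. let-7d-5p had 57 such reads in control libraries and 4 in Tut4/7 cKO (log2 odds ratio −4.22, SE 0.99, adjusted p 9.93e-05, edgeR). This was also the 1 member of 6 whose Tut4/7 cKO libraries all lay below all controls, against 30.4% of 79 miRNAs. let-7i-5p had 55 and 3 (−4.15, SE 0.99, adjusted p 0.000130), let-7g-5p 24 and 1 (−4.11, SE 1.16, adjusted p 0.00118) and let-7d-3p 11 and 0 reads (adjusted p 0.0204, edgeR). let-7d-3p passed the read filter through control reads alone, so the direction of its call was fixed in advance. let-7g-5p also needed control reads to pass, which favored this direction. The let-7d-3p share of all its reads was at least 2.51 times higher in Tut4/7 CTL when 3 reads are set in place of 0. Only 137 let-7d-3p reads of Tut4/7 cKO libraries ended at the mature end, and 2 or 3 Ts were not tested among reads that reach it. Its call was lost without any 1 of Tut4/7 CTL replicates 1 or 5 or Tut4/7 cKO replicates 1, 2 or 3, with adjusted p of 0.0503 to 0.0630 in edgeR's test, and also with no filter on reads (0.0639), with reads that start at base 1 (0.173) and with a replicate block (0.112).

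let-7a-5p and let-7f-5p, each with a locus followed by a genomic pair of Ts, did not pass for reads with 2 or 3 Ts, and their difference from the other members was not tested. let-7a-5p had 53, 38, 36, 38 and 15 reads with 2 Ts in Tut4/7 CTL against 2, 12, 18 and 45 in Tut4/7 cKO libraries, and 24 reads with 3 Ts in Tut4/7 CTL against 0 in Tut4/7 cKO. The groups overlapped for 2 Ts, since Tut4/7 cKO replicate 4 held more than most controls. For 2 or 3 Ts together the log2 odds ratio was −1.06 (SE 0.78, adjusted p 0.213, edgeR). The let-7a-5p share with 3 Ts was at least 4.98 times higher in Tut4/7 CTL when 3 reads are set in place of 0. let-7f-5p had 16 and 10 reads with 2 Ts and none with 3 (log2 odds ratio −0.59, SE 0.94, adjusted p 0.569, edgeR).

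When only Ts past the genomic run were counted as added, 5 members could be tested in edgeR, with the values given below. The share of all miRNAs called under this count is not given, so the members cannot be set against miRNAs in general. let-7a-5p, let-7d-3p and let-7d-5p passed the read filter through control reads alone, so the direction of their calls was fixed in advance. let-7i-5p, with no genomic T, had a log2 odds ratio of −3.65 (adjusted p 0.000195). let-7g-5p was left with 24 reads in controls and 1 in Tut4/7 cKO libraries (adjusted p 0.00302, edgeR). It also needed control reads to pass the filter, which favored this direction. For let-7a-5p (24 reads against 0, adjusted p 0.00778), let-7d-3p (11 against 0, 0.0169) and let-7d-5p (8 against 0, 0.0117) no size is given beyond a limit, since no such read was counted in Tut4/7 cKO libraries. With 3 reads in place of 0, the let-7d-5p share was at least 3.71 times higher in controls. let-7f-5p had too few such reads to be tested.

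The 3′ end of reads without added Ts was examined last, as the share that stops before the mature end among reads that stop before or at it. let-7d-3p stood out. Its reads lacked the last T in nearly all cases in Tut4/7 cKO libraries and kept it in most cases in 4 of the 5 Tut4/7 CTL libraries. The read forms are printed with bases past position 21 in capitals, since the finding lies in the first of them, which is the mature last base, a T, and is followed by another genomic T.
let-7d-3p, 1 base short: ctatacgacctgctgcctttc
let-7d-3p, mature end: ctatacgacctgctgcctttcT
let-7d-3p, 1 added T: ctatacgacctgctgcctttcTT
let-7d-3p, 2 added Ts: ctatacgacctgctgcctttcTTT

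The share of let-7d-3p reads that reach the last T was 68.7% (95% Wilson interval 65.3 to 71.9), 13.7% (11.1 to 16.7), 78.1% (75.7 to 80.2), 70.9% (68.2 to 73.6) and 79.4% (78.0 to 80.7) in Tut4/7 CTL replicates 1 to 5. It was 3.001% (2.18 to 4.11), 3.10% (2.30 to 4.16), 2.45% (1.83 to 3.27) and 2.68% (1.65 to 4.30) in Tut4/7 cKO replicates 1 to 4. No Tut4/7 cKO library overlapped with a Tut4/7 CTL library, and Tut4/7 CTL replicate 2 lay between the Tut4/7 cKO libraries and the remaining controls. The means were 62.1% ± 27.5 (SD, n = 5) and 2.81% ± 0.298 (SD, n = 4; exact two-sided permutation test, p = 0.0159, the smallest possible), and the Tut4/7 CTL mean without replicate 2 was 74.3% ± 5.26 (SD, n = 4). This permutation test was not planned. It repeats the early-end comparison on nearly the same reads, so it adds no separate evidence.

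**Figure D4:**
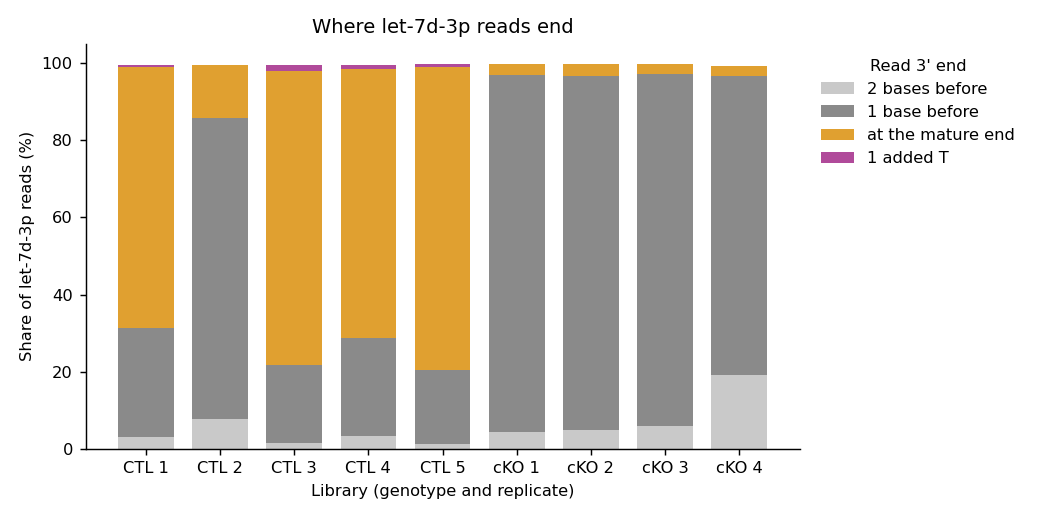
Where let-7d-3p reads end in each library (stacked bars, percent of let-7d-3p reads, from 2 bases before the mature end to 1 added T; rarer ends are not drawn). The bar segment for the mature end dominates in Tut4/7 CTL replicates 1, 3, 4 and 5 and shrinks to 2.40 to 3.10% in Tut4/7 cKO libraries, where most reads end 1 base earlier, as they do in Tut4/7 CTL replicate 2.

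In edgeR's quasi-likelihood test of reads that stop before against at the mature end, let-7d-3p had a log2 odds ratio of 6.03 (SE 0.85, adjusted p 0.00193). It was the only member called of 8 tested, against 1.1% of 181 miRNAs called higher and 0 called lower. The other miRNA called was miR-365-3p, named here after its values were seen (log2 odds ratio 6.74, SE 0.71, adjusted p 0.000248, edgeR). Its mature last base is T, as it is in all 10 members, of which 7 were tested without a call. miR-365-3p stopped short in 40.0, 100, 40.4, 33.3 and 37.5% of 5, 3, 47, 48 and 24 reads in Tut4/7 CTL. In Tut4/7 cKO libraries it did so in 96.3, 100, 98.6 and 100% of 27, 79, 145 and 9 reads. Over all 181 miRNAs, 26 were below an unadjusted p of 0.05, 4 of them members. Without Tut4/7 CTL replicate 2 the let-7d-3p odds ratio was 6.66.

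Most let-7d-3p reads of Tut4/7 cKO libraries ended exactly 1 base early, in 77.6 to 92.6% of reads per library, against 78.0% in Tut4/7 CTL replicate 2, and 19.2 to 28.1% where the remaining controls were counted. Ends 2 bases early were 1.28 to 7.77% in Tut4/7 CTL and 4.30, 4.94, 5.96 and 19.1% in Tut4/7 cKO libraries. Since the genome has a T at the last mature position, a genomic T and an added T cannot be told apart there. When added Ts were counted only among reads that reach the mature end, the let-7d-3p log2 odds ratio changed from −4.15 to 0.37 (adjusted p 0.986, edgeR), on 2 tailed and 137 untailed reads in Tut4/7 cKO libraries. On the same count, the 5p arms of let-7i, let-7g, let-7f, let-7d and let-7a kept log2 odds ratios of −3.80 to −2.11 and their calls in edgeR's test.

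let-7i-3p, the other 3p member, had too few reads for this test. Reads that ended at the mature end numbered 2 of 4, 0 of 18, 0 of 8, 1 of 7 and 5 of 6 in Tut4/7 CTL against 0 of 4, 0 of 18, 0 of 10 and 0 of 16 in Tut4/7 cKO libraries. Only Tut4/7 CTL libraries held such reads, and 2 of the 5 held none. Summed, the share was 18.6% in Tut4/7 CTL and was at least 2.98 times higher than in Tut4/7 cKO with 3 reads in place of 0. Without Tut4/7 CTL replicate 2 these were 32.0% and 5.12 times, and 5 of the 8 reads came from replicate 5. With no filter on reads, let-7i-3p was called higher in Tut4/7 cKO for reads that stop early (adjusted p 0.0132, edgeR), among 2.52% of 476 miRNAs. It entered this test only through control reads at the mature end, so the direction of the call was fixed in advance.

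The 5p members did not pass this test. let-7g-5p reads stopped early in 13.0, 13.4, 11.9, 14.2 and 12.6% in Tut4/7 CTL and 16.0, 14.9, 15.0 and 19.4% in Tut4/7 cKO libraries (log2 odds ratio 0.38, SE 0.14, adjusted p 0.277, edgeR). let-7f-5p stopped early in 21.6, 20.9, 18.5, 20.2 and 17.03% against 24.2, 22.3, 23.1 and 24.4% (log2 odds ratio 0.33, SE 0.15, adjusted p 0.327, edgeR). With let-7d-3p, these were the 3 of 8 members in which every Tut4/7 cKO library lay above every control, against 5.65% of 177 miRNAs, and 0 of 8 lay below, against 0.565%. let-7d-5p (22.8% ± 2.34 and 28.0% ± 3.56), let-7a-5p (16.5% ± 3.65 and 19.4% ± 4.66) and let-7i-5p (2.72% ± 0.568 and 3.23% ± 1.90; SD, n = 5 and 4) overlapped between the genotypes, and the let-7a-5p value varies with the name under which the 18-base read was listed.

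Early ends of the 5p members were not spread evenly over positions. Besides the position 1 base before the end, a set of members had a separate peak at base 18, 4 bases before the mature end. The mature sequences are printed again with bases 18 and 19 in capitals, because these bases lie on either side of that end.
let-7a-5p: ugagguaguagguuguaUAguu
let-7d-5p: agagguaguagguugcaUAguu
let-7f-5p: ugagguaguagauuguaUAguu
let-7g-5p: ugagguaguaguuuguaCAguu
let-7i-5p: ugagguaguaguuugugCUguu
miR-98-5p: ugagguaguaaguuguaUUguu

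Reads that ended at base 18 were 5.18 to 8.92% of let-7d-5p, 6.98 to 11.3% of let-7f-5p and 3.23 to 4.79% of let-7g-5p over the 9 libraries. For let-7a-5p and let-7c-5p together, which this read cannot separate, they were 4.79 to 7.51%. By contrast, they were 0.0183 to 0.0549% of let-7i-5p. The ratio of reads that end at base 18 to those that end at base 19 was 106 for let-7f-5p, 59.6 for let-7g-5p, 50.7 for let-7d-5p and 47.2 for let-7a-5p and let-7c-5p together, but 0.169 for let-7i-5p and 1.56 for miR-98-5p. let-7b-5p, with G at base 19, also ended at base 18 (39 of its 203 reads, with 1 read at base 17 and 7 at base 19), as did 5 of the 54 let-7e-5p reads, with A at base 19 and 0 reads at bases 17 or 19. let-7i-5p and miR-98-5p, with the low ratios, have U at base 19. This is a description over few sequences and was not tested.

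The base 18 peak was present in both genotypes. It measured 5.97% ± 0.680 and 7.53% ± 1.06 for let-7d-5p, 8.13% ± 0.706 and 9.63% ± 1.98 for let-7f-5p, 3.56% ± 0.372 and 4.31% ± 0.477 for let-7g-5p and 5.43% ± 0.607 and 6.46% ± 1.204 for let-7a-5p and let-7c-5p together (SD; the first value of each pair is Tut4/7 CTL, n = 5, and the second Tut4/7 cKO, n = 4). These differences were not tested. By group means the end 1 base early was more frequent than the peak, at 13.5 and 17.6% for let-7d-5p, 9.34 and 12.2% for let-7f-5p, 7.91 and 10.2% for let-7g-5p and 11.2 and 14.3% for let-7a-5p and let-7c-5p together. let-7f-5p had the reverse order in Tut4/7 CTL replicates 3 and 5 and in Tut4/7 cKO replicate 2.

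**Figure D5:**
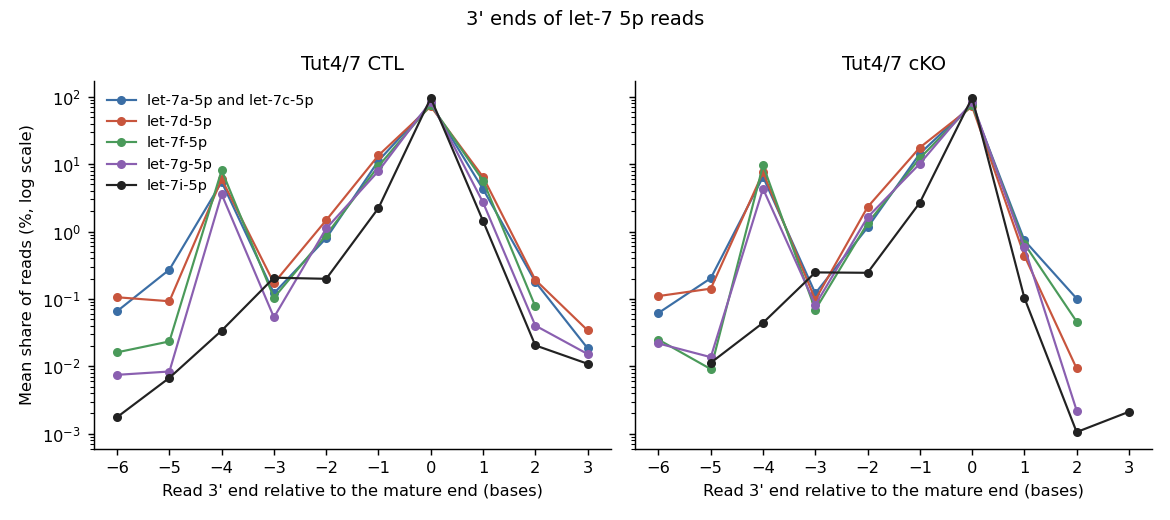
Mean share of reads (percent, log axis) that end at each position relative to the mature 3′ end, for the 5p arms of let-7i, let-7g, let-7f and let-7d and the sum of let-7a-5p and let-7c-5p in Tut4/7 CTL (left, n = 5) and Tut4/7 cKO libraries (right, n = 4); a mean of 0 is not drawn. At −4, which is base 18, each curve but that of let-7i-5p has a peak of 3.56 to 9.63%. From the mature end to the first added T the cKO curves drop more steeply.

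By a rule based on the share with added Ts over the 9 libraries, the miRNAs most like the summed let-7 5p members, of 58 with at least 100 reads in every library, were miR-30e-3p, miR-532-5p and miR-191-5p. Their median absolute differences from the let-7 share were 0.233, 0.241 and 0.299 percentage points. miR-30e-3p had 2.37% ± 1.014 in Tut4/7 CTL against 0% in Tut4/7 cKO libraries, miR-532-5p 2.47% ± 1.29 and 0.251% ± 0.191 and miR-191-5p 3.31% ± 1.75 and 0.105% ± 0.0614 (SD, n = 5 and 4). The summed let-7 5p members ranged from 0.800 to 4.77% and from 0.215 to 0.471%.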

How the data were processed

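Small RNAs of 9 cultures were sequenced without molecular identifiers. The authors trimmed adapters (cutadapt 5.0), mapped reads without mismatch (Bowtie 1.3.1) to miRBase mature sequences extended by 3 Ts, and marked reads ending in added Ts. For each library the authors deposited whole-number counts, both by miRNA and by read sequence. The release used was not given in the sources used here, and the submitters' processing notes also list DESeq2 1.42.1. Table counts equaled read sums, with 0 differences.

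Member CPM were scaled by TMM, marker CPM by library totals. Tests ran over all miRNAs in edgeR 4.0.16 (R 4.3.3, glmQLFit, glmQLFTest) with Benjamini-Hochberg adjustment. They were also run on simulated counts without an outlying library, and that outcome is not given here. Read class tests had a term per library and asked for 10 or more reads in 5 or more libraries, plus 3 reads of each class, whatever the genotype. Exact permutation tests used SciPy 1.17.1. DESeq2 1.42.0, other filters, a quasi-binomial model, unique reads, a replicate block and omission of each library were alternatives. All listed members, other let-7 and miR-98 rows and the 3 miRNAs most alike were to be named. Members and lists were chosen with earlier results of these data known. Intervals cover counting error only. Replicates were taken as separate cultures; where they were not, p values measure only the spread between these samples.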

Additional observations from a re-analysis of the deposited data

Results flagged for a closer look

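Of 62 groups of values checked for a library far from the others, 5 had one, where chance gives about 1 in 20, and 3 of the 5 lay in the library labelled Tut4/7 CTL replicate 2, where the first 2 below are the same reads counted from either side. In that library 86.3% of let-7d-3p reads stopped before the mature end (other Tut4/7 CTL libraries 20.8 to 31.6%), 13.7% reached the last T (others 68.7 to 79.4%), and let-7i-3p stood at 67.8 CPM (others 17.9 to 24.4). let-7d-3p stood at 13465 CPM in Tut4/7 CTL replicate 5, against 2230 to 3782 in the other Tut4/7 CTL libraries. let-7i-5p reads stopped early in 6.05% in Tut4/7 cKO replicate 4, against 1.94 to 2.53% in the other Tut4/7 cKO libraries.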

How the results depend on the processing

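Under the alternatives tried, the number of members called stayed at 0 for abundance, at 6 for reads with exactly 1 added T and at 5 to 6 for all added Ts, and leaving out 1 library at a time gave 0 to 0, 6 to 6 and 6 to 6. For 2 or 3 added Ts it was 3 to 4, also without 1 library. For early ends it was 1, also without any 1 library, except 2 with no filter on reads per library. There let-7i-3p entered the test only through control reads at the mature end, which fixed the direction of its call. Counting only reads that reach the mature end was tried for all added Ts, not for 1 T or for 2 or 3 Ts. The difference in added Ts over the family was 2.72 percentage points (2.31 to 3.29 leaving out 1 library) and 0.608 with only Ts past the genomic run, a count that takes in fewer Ts. The let-7d arm ratio differed by −1.13 to −0.20 leaving out 1 library, and the let-7i ratio by −0.36 to 0.20, turning positive without Tut4/7 CTL replicate 2 (0.19) or Tut4/7 cKO replicate 3 (0.20).

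Members that changed direction did so without a call, except let-7d-3p for added Ts, which reads 0.37 among reads that reach the mature end. The causes were not tested. In abundance (log2), let-7b-5p gave −0.10 with no filter, and leaving out 1 library gave −0.24 to 0.19 for let-7b-5p, −1.33 to 0.30 for let-7c-5p, −0.78 to 0.33 for let-7d-3p and −0.046 to 0.55 for let-7i-3p. For added Ts let-7b-5p gave 0.0093 with reads that start at base 1 (0.0097 for a single T), and −1.05 to 0.44 leaving out 1 library (−1.05 to 0.45 for a single T). For early ends let-7b-5p gave 0.00 in the quasi-binomial model and 0.070 with reads that fit 1 miRNA, let-7c-5p 0.20 and 0.21, and leaving out 1 library gave −0.91 to 0.45 for let-7b-5p, −1.79 to 1.10 for let-7c-5p and −0.23 to 0.33 for let-7i-5p.

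With the replicate block, which uses replicates 1 to 4, members called were 0 for abundance, 6 for added Ts, 6 for a single T, 3 for 2 or 3 Ts (let-7d-3p lost its call, adjusted p 0.112, edgeR) and 1 for early ends. Under this pairing let-7d-3p abundance gave 0.11, and early ends gave 0.21 for let-7b-5p, 0.10 for let-7c-5p and −0.014 for let-7i-5p. Deviations of same-numbered libraries from their group means had correlations of −0.200 to 0.432 for abundance and −0.0740 to 0.0609 for added Ts. The highest, 0.432, was that of replicate 3. Libraries with different numbers were not compared, so whether same-numbered libraries share more than a number was not tested.

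Over all miRNAs, abundance calls numbered 1 in edgeR, 11 in DESeq2, 18 with no filter, 0 with a minimum of 50 reads and 0 with the block. Early end calls numbered 2, and 13 with no filter, 7 with reads that fit 1 miRNA and 3 with reads that start at base 1. Depth limited let-7b-5p, let-7e-5p and let-7i-3p most.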

Other observations

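let-7j, listed separately with 91 reads in all, had no read that reached its listed mature end in any library and none with an added T. Reads of the members began at the first mature base in 99.7 to 99.9% of cases in Tut4/7 CTL and in 99.6 to 99.7% in Tut4/7 cKO libraries.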
